A study of Homo sapiens with 4 samples.

Results

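The larger part of Clone 3 carries a long deletion in a target site of its lineage recorder, and the cells described here are those in which it was not seen. They were chosen by a readout: a cell of Clone 3 was a member where no allele listed for it held the deletion that the table places from position 110 to position 214 of the target site and lists at each of its 3 cut sites. This gave 3457 members of the 7289 cells of Clone 3, beside 3832 cells with that deletion, called carriers, and 34557 cells in the whole series. All cells were A549, a human lung adenocarcinoma line, engineered with Cas9, a triple-sgRNA cassette and several copies of a target site, and Clone 3 is by the authors' call the progeny of 1 such cell. Cells grew from a small founding pool, were split into first-split plates 0 and 1, and were split again into the final plates 00, 01, 10 and 11, each of which gave 1 single-cell library. The digits in the plate labels were read as the first split followed by the second, an order that the sources used here do not state.

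The recorder works by cutting. Cas9 directed by 3 guide RNAs cuts each target site at 3 places, and repair leaves an insertion or deletion (indel) that cannot be cut again and passes to all descendants. An indel made early therefore marks a large clade, and one made late marks few cells. Each target site copy is transcribed and carries an integration barcode (intBC), so that single-cell RNA sequencing reads the alleles of all copies in a cell. A long deletion can remove several cut sites at once, and a copy that yields no transcript in a cell is missing data. The same indel can also arise independently in different cells, which is called homoplasy.

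Clone 3 had 16 target sites, lettered A to P by the number of cells in which each was detected. The position of these copies in the human genome is not given in the sources used here. A state is written as the letter followed by the indel in the table's own form, so M[91:82D] is a deletion of 82 bases from position 91 of target site M, and L[111:1I] is an insertion of 1 base at position 111 of target site L. The intBCs below, in capitals throughout, identify the copies on which the results turn: A is the copy that bears the deletion of the carriers and the state that led the second largest group of members, M, G, B, E, I, H, L and K bear the states that led the other groups, and H, J and O were missing from whole groups.
target site A: GGAAAAGCGCCACC
target site B: CATCATTCGCAAGT
target site E: AGATCTCTGCTCGA
target site G: TGCTCGAATTTGTC
target site H: TGCTTTCTGTCGGA
target site I: TCTCCGCTTAAGTG
target site J: GTTTCCCGGTTTGT
target site K: GGACATACGTAGAA
target site L: TCTCCGTTAGACAT
target site M: CGATCTCTAAGGAC
target site O: TCATTTATCTTAGG

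The joins left by the deletions that divide the clone are shown next, as the 5 bases on the left in lower case and the 5 bases on the right of the missing stretch in capitals. The deletion that chose the cells is given first, followed by the deletions that led groups of members and by C[217:19D], which was nested inside L[113:12D], since the join is what tells a deletion from another of similar size.
deletion of the carriers at site A: acgccTTTGT
M[91:82D]: tcgcaTTCAT
A[219:2D]: taattCGGAG
G[90:25D]: gtcgcATGGC
B[115:100D]: gagacAATGT
E[113:77D]: ccgaaATGTC
K[161:99D]: cataaCGTCC
K[165:18D]: acgatACCGA
L[113:12D]: ccgaaAACTA
C[217:19D]: attaaTTCGT
These were read against the unedited target site, rebuilt from the flanking bases of all deletions. The 5 bases on the right of the carriers' deletion differed from the rebuilt site in 4 places, and those around B[115:100D] in 2 on each side, so neither is a plain join at the listed positions and no repeat was counted for them. All flanking bases of the other 8 deletions matched. M[91:82D], E[113:77D] and K[165:18D] had 1 base repeated at their ends, A[219:2D], G[90:25D], K[161:99D] and L[113:12D] had 2, and C[217:19D] had 4. Of 171 deletions seen in at least 20 members, 157 matched the rebuilt site on both sides, with a median of 2 repeated bases, and 36 of these had 0.

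Members took up a larger part of Clone 3 in first-split plate 1 than in plate 0. They were 619 of 2000 cells in plate 00 (30.9%; exact binomial 95% interval, 28.9 to 33%), 831 of 2168 in plate 01 (38.3%; 36.3 to 40.4%), 973 of 1528 in plate 10 (63.7%; 61.2 to 66.1%) and 1034 of 1593 in plate 11 (64.9%; 62.5 to 67.3%). The intervals of the plate 0 libraries do not overlap those of the plate 1 libraries, nor each other. All such intervals here cover only the counting of cells. Related cells are not independent and there was 1 library per plate, so no difference between plates was tested. Of all members, 41.9% were in first-split plate 0.

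The libraries held 8031 to 9337 cells with 679952 to 812480 UMIs (unique molecular identifiers, 1 for each captured transcript). Over the 15 target sites other than A, members had medians of 121, 96.0, 95.0 and 103 UMIs per cell in plates 00, 01, 10 and 11, beside 115, 97.0, 92.0 and 98.0 in carriers. Each of these 15 sites was detected in 59.1 to 92.7% of members and in 62.2 to 94.5% of carriers. Of 33935 cell barcodes, 621 occurred in more than 1 library, and 129 members had such a barcode. The table holds target site transcripts only, so the A549 label could not be checked against marker genes.

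At target site A itself, 3143 members had a readable allele and 314 had none. Of the readable alleles, 1544 (49.1%) were uncut at all 3 cut sites, and this share was 47.1%, 43.1%, 50.8% and 53.4% in plates 00, 01, 10 and 11. The others were divided among many indels, with 214 distinct alleles in all. The commonest was a 2-base deletion at position 219 alone, in 234 members, with 6, 9, 146 and 73 of them in plates 00, 01, 10 and 11. A 54-base deletion at position 167 with an uncut first cut site was carried by 207 members, of which 66 and 132 were in plates 00 and 01 and 4 and 5 in plates 10 and 11. The insertion at 111 together with the 2-base deletion at 219 was carried by 192 members, 75 in plate 10 and 117 in plate 11. Members with a near copy of the carriers' deletion, within 10 bases in start and length, numbered 2, and 5 members had any other deletion listed at all 3 cut sites of A. In the series the carriers' deletion was found in 1 of 117 target sites.

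A few of the states shared among members were large. M[91:82D] was carried by 1299 members (37.6%), which was 603 (62.0%) in plate 10 and 696 (67.3%) in plate 11, and by 0 members in plates 00 and 01. It removes cut sites 1 and 2 of site M, and the indel was found at no other target site of the series. G[90:25D], which removes cut site 1 of site G, was carried by 455 members, 224 (36.2%) in plate 00, 231 (27.8%) in plate 01 and 0 in plates 10 and 11. Its indel was seen at 8 target sites of the series. Each of these states thus filled the members of 1 first-split plate to between 27.8% and 67.3% and was not found in the other. There, 0 of 1450 members allows a share of M[91:82D] of up to 0.207% and 0 of 2007 a share of G[90:25D] of up to 0.149%. These limits also count members in which the site was missing. Site M was detected in 77.7 and 71.1% of members in plates 00 and 01, and site G in 89.8 and 92.4% in plates 10 and 11. Among members with the site detected the limits are therefore higher.

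**Figure D1:**
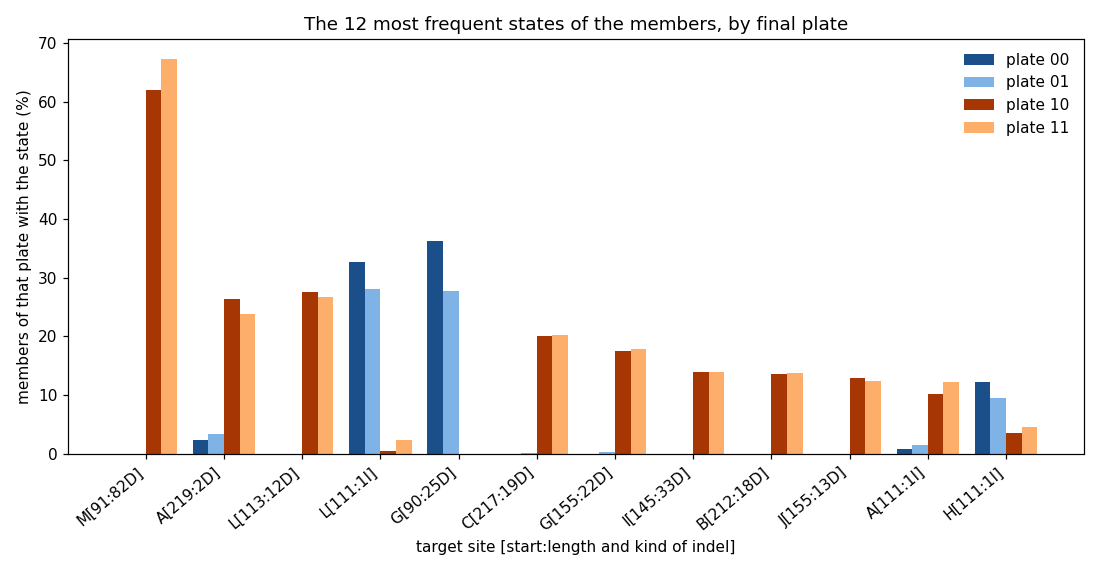
Percent of the members of each final plate that carried each of the 12 most frequent states (bars; plates 00, 01, 10 and 11 from left to right). M[91:82D] reached 62.0 and 67.3% in plates 10 and 11 and G[90:25D] 36.2 and 27.8% in plates 00 and 01, and H[111:1I] had bars in all 4 plates.

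The other frequent states followed the same division. L[113:12D] was found in 268 and 276 members of plates 10 and 11, C[217:19D] in 195 and 210, G[155:22D] in 170 and 184, I[145:33D] in 136 and 144, B[212:18D] in 133 and 143 and J[155:13D] in 125 and 129. In plates 00 and 01 together these 6 states were seen in 0, 1, 2, 0, 0 and 0 members. A[219:2D] had 15, 28, 257 and 247 members in plates 00, 01, 10 and 11, and A[111:1I] 5, 12, 100 and 127. L[111:1I] went the other way, with 202, 234, 5 and 25. The exception was H[111:1I], with 76, 79, 35 and 48 members, or 65.1% in first-split plate 0. The indels of these states that crossed plates are recurrent, with [219:2D] seen at 95 target sites of the series and [111:1I] at 91. All 27 states with at least 20 members in each first-split plate had indels found at 58 target sites or more. Recurrent indels were also confined to 1 plate. C[217:19D], with its indel at 62 target sites, had 1 of 406 members in plate 0, and H[221:1D], at 79, had 0 of 117. Whether recurrence accounts for the crossing was not tested.

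Of the 217 states with at least 20 members, 98 (45.2%) had at least 95% of their cells in 1 first-split plate. The same share was 41.9% of 1212 states over the 9 clones that had 20 cells or more on either side of the first split. These clones include the one described here, so members and carriers are part of that background. No comparison with the other clones alone was made, and the share of the members lies close to the pooled one. By direction, 52 (24.0%) were confined to plate 0, against 23.7% over the clones, and 46 (21.2%) to plate 1, against 18.2%. Carriers had 82 of 158 states confined (51.9%). For members, the indels of confined states were seen at a median of 31 target sites and those of the other states at 71. No state with at least 20 members was tied so closely to 1 final plate, the highest share being 86.7%. The second split divided M[91:82D] and G[90:25D] close to evenly: of the M[91:82D] members 53.6% (50.8 to 56.3%) were in plate 11, and of the G[90:25D] members 50.8% (46.1 to 55.5%) were in plate 01. B[115:100D] was less even, with 141 of 207 members (68.1%; 61.3 to 74.4%) in plate 01, beside 57.3% (54.7 to 59.9%) of all plate 0 members and 49.2% (47.3 to 51.1%) of plate 0 carriers.

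M[91:82D] and G[90:25D] were mutually exclusive: of 2533 members with sites M and G both detected, 1176 had the first, 390 had the other and 0 had both, where the product of the shares gives 181. Because these states lie in different first-split plates, the plates alone fix that result. Exclusion inside a plate is not fixed in this way. In first-split plate 1, G[155:22D] and L[113:12D] never met in 1200 members with both sites detected (product, 106), and G[155:22D] and C[217:19D] never met in 1676 (product, 72.7). C[217:19D] met neither I[145:33D] (0 of 1654; product, 58.1) nor B[212:18D] (0 of 1698; product, 58.6). A[219:2D] was carried by 434 and M[91:82D] by 1172 of 1576 members with both sites, with an overlap of 34 where the product gives 323.

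In first-split plate 0, 7 states led groups and formed 20 pairs on different target sites. Each was picked as the most frequent state among members left without the earlier leading states. Low overlap is therefore in part built into the choice. In 16 of these pairs no cell carried both, in 19 the overlap was below the product of the shares, and all pairs together had 17 cells with both. G[90:25D] and I[167:2I], whose indel was seen at 40 target sites, had the highest overlap, 11 of 928 members where the product gives 47.8. The exception was B[115:100D] with H[166:1I], 1 cell against a product of 0.637, a pair that rests on only 5 B[115:100D] members in which site H was detected.

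**Figure D2:**
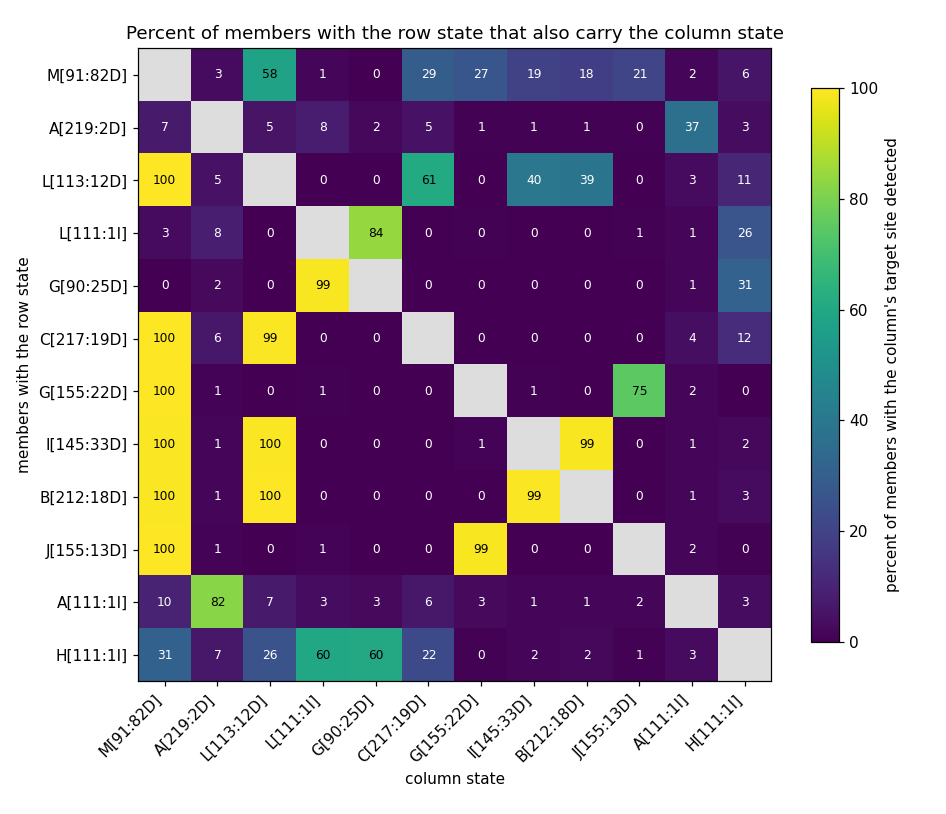
Percent of members with the row state that also carried the column state, among those with the column's target site detected, rounded to whole numbers (colour scale 0 to 100; grey, same state). G[155:22D] with J[155:13D] and L[113:12D] with C[217:19D], I[145:33D] and B[212:18D] form separate blocks inside M[91:82D], and 99% of G[90:25D] members carried L[111:1I].

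Other states were nested. All 468 L[113:12D] members with site M detected carried M[91:82D], as did 350 of 351 with C[217:19D], 314 of 315 with G[155:22D], 227 of 228 with I[145:33D], 222 of 223 with B[212:18D] and 222 of 222 with J[155:13D]. One level down, L[113:12D] was carried by 305 of 307 members with C[217:19D], 203 of 204 with I[145:33D] and 202 of 202 with B[212:18D]. I[145:33D] and B[212:18D] marked nearly the same cells, since 269 of 272 I[145:33D] members carried B[212:18D] and 269 of 271 B[212:18D] members carried I[145:33D]. J[155:13D] lay within G[155:22D] in 244 of 246 members, and 244 of 327 G[155:22D] members carried it. Among M[91:82D] members in which sites L, G, C, I, B and J were all detected (495), these states gave 5 branches and a remainder. L[113:12D] with C[217:19D] made up 35.8%, L[113:12D] with I[145:33D] or B[212:18D] 23.0%, G[155:22D] with J[155:13D] 23.2%, G[155:22D] without it 8.28%, L[113:12D] with none of these 0.404%, and 9.29% had neither L[113:12D] nor G[155:22D]. The largest of these was 37.2% in plate 10 and 34.5% in plate 11, and the G[155:22D] with J[155:13D] branch 24.2% and 22.3%. The gaps were wider for L[113:12D] with I[145:33D] or B[212:18D], at 20.8% in plate 10 and 25% in plate 11, and for members with neither L[113:12D] nor G[155:22D], at 7.36% and 11%. These differences were not tested.

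G[90:25D] had its own nesting, with L[111:1I] in 374 of 377 members in which site L was detected. The inverse was looser, since 374 of 444 L[111:1I] members with site G detected carried G[90:25D]. Outside its group lay 92 L[111:1I] members, a count that includes those in which site G was missing. Within the G[90:25D] group, L[163:2I] was found in 138 members, 75 in plate 00 and 63 in plate 01, H[111:1I] in 128 (65 and 63) and P[161:18D] in 100 (52 and 48). Members outside the group with these states numbered 8, 110 and 29. P[161:18D] was also found in 818 carriers, 34.3% of those with site P detected, against 31.7% in the group, so it was not particular to G[90:25D]. Another state of the group, at site M, joined a 3-base deletion at 111 to a 1-base deletion at 122. It was carried by 111 members (58 and 53), and its full indel occurred at 1 target site of the series. Members of the M[91:82D] group held 1306 further states, of which 705 were seen in 1 cell and 315 in both final plates. The G[90:25D] group held 468, of which 253 were seen in 1 cell and 111 in both. States tied to 1 final plate were rare: K[163:2D] within M[91:82D], with 20 of 21 members in plate 10, was the only further state with at least 20 members that had at least 95% of them in 1 final plate. Within G[90:25D] the most skewed was A[159:17D], with 22 of 27 members in plate 00.

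When members were divided again and again by the most frequent state left, 10 states took 3126 of them (90.4%). The groups were M[91:82D] with 1299, A[219:2D] with 513, G[90:25D] with 445, B[115:100D] with 205, E[113:77D] with 198, I[167:2I] with 166, H[166:1I] with 110, L[113:12D] with 73, K[161:99D] with 70 and K[165:18D] with 47 members. The L[113:12D] group cannot be taken as separate from the first. It held only members in which site M was missing, so M[91:82D] could not be seen in them. Of all 544 L[113:12D] members 76 lacked site M, 47 in plate 10 and 29 in plate 11. The 5 groups after A[219:2D] had at most 1 member in first-split plate 1. A[219:2D] is a recurrent indel, and 43 of its members lay in plate 0. The 331 members left were spread over all plates, with 55, 112, 89 and 75 in plates 00, 01, 10 and 11. Only 2 members had no indel at any detected cut site. When the leading states were limited to indels seen at 20 target sites or fewer, a choice made after the data were seen, 10 groups took 2525 members, and M[91:82D], G[90:25D], B[115:100D] and E[113:77D] came first.

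Whole target sites were missing from some groups and present in the others. Site O was detected in 4 of 224 G[90:25D] members of plate 00 (1.79%; 0.489 to 4.51%) and in 3 of 231 of plate 01 (1.30%; 0.269 to 3.75%), against 80.8 and 79.0% of the other members of the same plates. Among A[219:2D] members, site O was detected in 8.56% (5.44 to 12.7%) in plate 10 and 4.86% (2.53 to 8.33%) in plate 11, against 79.6 and 81.2% of the others. In plate 01, where A[219:2D] had 28 members, site O was detected in 57.1% of them and in 57.4% of the others. Site H was detected in 3 of 66 and 2 of 141 B[115:100D] members of plates 00 and 01, against 88.8 and 88.0% of the others, and site J in 0 of 69 and 3 of 70 H[166:1I] members, against 78.7 and 76.0%. Depth did not move with this in one direction: median UMIs per cell at the other sites were 117 and 101 in G[90:25D] members of plates 00 and 01, against 125 and 94.5 in the others. They were 161 and 122 in H[166:1I] members, against 117 and 93.0, and 95.0 and 84.0 in B[115:100D] members, against 128 and 101. Where site O was seen in a G[90:25D] member, its count was low, with a median of 1 UMI in 7 cells against 8 in other members. With alleles under 5 UMIs set to missing, 0% of G[90:25D] members had site O. This did not hold for A[219:2D], where site O had a median of 10 UMIs in 62 cells, against 8. Site H had a median of 1 in 5 B[115:100D] members, against 6, and site J 4 in 11 H[166:1I] members, against 8. Whether the missing copies were lost from the genome or not transcribed was not tested.

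**Figure D3:**
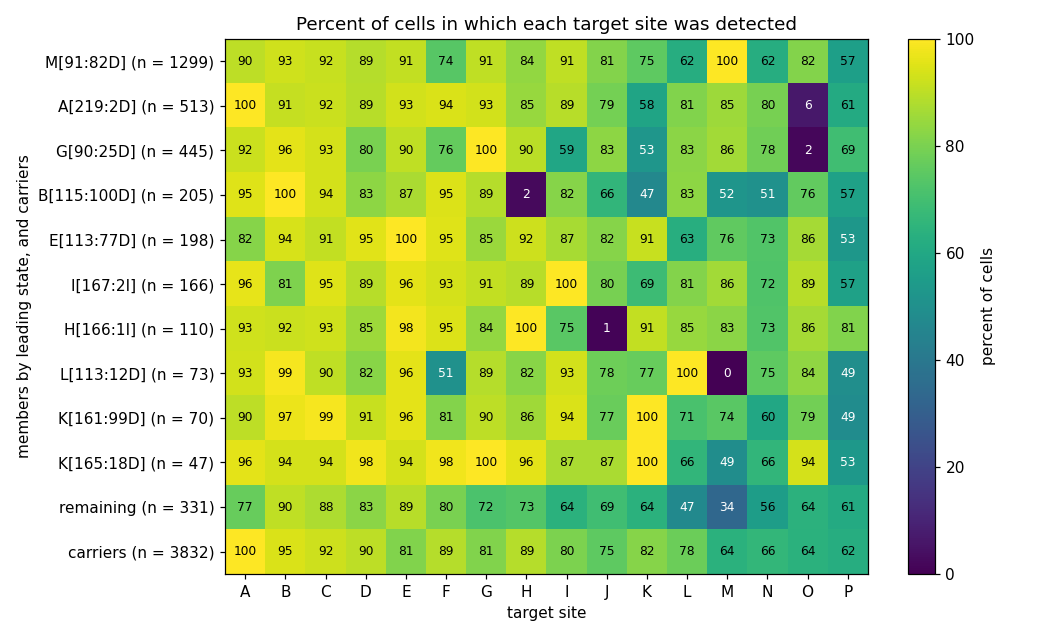
Percent of cells in which each of the 16 target sites was detected (colour and whole numbers), for the 10 groups of members in the order in which they were formed, the remaining members and the carriers. Site O was at 6% and 2% in the A[219:2D] and G[90:25D] groups, H at 2% in B[115:100D] and J at 1% in H[166:1I]. A site that leads a group is at 100%, and M at 0% in the L[113:12D] group, by construction.

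This pattern was counted over all 93 states with at least 50 members, as pairs of a state and another target site detected in at most 10% of the state's members and in at least 50% of the other members of the same first-split plates. These thresholds were set after the data were seen. There were 42 such pairs of 1395 (3.01%), for 31 states and 8 sites, beside 3.51% of 8150 pairs over the 9 clones, Clone 3 included. Pairs that mark 1 clade are counted repeatedly, since nested states share cells. For instance, site H was missing with B[115:100D], L[145:22D], P[113:7D], F[166:4D] and F[111:1D], all of which were carried mainly by B[115:100D] members. In plate 1, sites K and O were both missing from members with E[167:1D] (3.28 and 0.546% detected, against 76.3 and 68.1%) or G[220:1D] (2.63 and 0%, against 76.6 and 68.4%).

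Members and carriers were edited to a different degree, in a direction that depended on the first split. Outside site A, members had on average 23.2, 24.3, 21.6 and 22.7% of their detected cut sites edited in plates 00, 01, 10 and 11, against 21.5, 21.7, 26.5 and 27.0% in carriers. Members were thus above carriers by 1.65 and 2.65 percentage points in plates 00 and 01, and below them by 4.90 and 4.31 points in plates 10 and 11. The mean difference over the 4 plates, members minus carriers, was -1.23 ± 3.93 points (SD over plates) with an exact two-sided sign-flip p of 0.5. The smallest p that 4 plates allow is 0.125, so no difference of this kind could pass 0.05. The mean rested on which plates were in it: it was -2.19 points without plate 00, -2.52 without plate 01, -0.00208 without plate 10 and -0.199 without plate 11. Cells share early indels, so the means are set in part by the founders of each clade. Final plates of the same first-split plate share these clades. The 4 plates are thus not independent units, although the sign-flip test treats them so.

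By cut site the pattern differed. At cut site 1, members were more edited in 4 of 4 plates, with 23.4, 23.7, 19.6 and 20.6% in plates 00, 01, 10 and 11, against 13.8, 14.1, 17.1 and 18.9% in carriers. The mean difference was 5.85 ± 4.37 points (exact p = 0.125, adjusted p = 0.25 over 6 tests). Plates 00 and 01 share clades, as do 10 and 11, so 4 of 4 plates is not 4 independent results. At cut site 2 they were less edited in 4 of 4 plates, with 29.7, 32.7, 30.1 and 30.7%, against 34.7, 34.6, 38.2 and 39.1% in carriers. The mean difference was -5.87 ± 3.03 points (exact p = 0.125, adjusted p = 0.25). At cut site 3 the values were 16.4, 16.5, 15.2 and 16.8% in members and 16, 16.3, 24.3 and 22.9% in carriers, so the gap was in plates 10 and 11. UMIs per cell outside site A averaged 144, 119, 110 and 119 in members, against 132, 112, 106 and 115 in carriers. They were higher in members in 4 of 4 plates, by 6.75 ± 3.79 on average (exact p = 0.125, adjusted p = 0.25). With the median over cells in place of the mean the difference was 3.25 (exact p = 0.25), and in plate 01 the median of members, 96.0, was below that of carriers, 97.0.

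**Figure D4:**
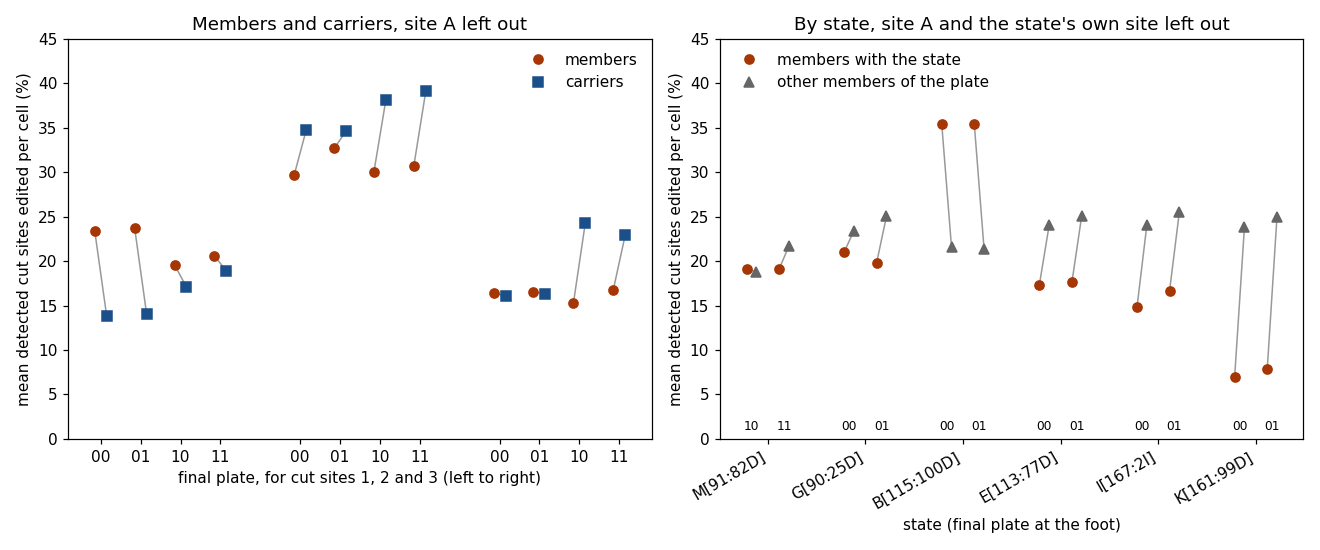
Mean percent of detected cut sites edited per cell. Left, members (circles) and carriers (squares) at cut sites 1, 2 and 3 in each final plate, site A left out, with members above carriers in 4 of 4 plates at cut site 1 and below in 4 of 4 at cut site 2. Right, members with a state (circles) and the other members of the same plate (triangles), with B[115:100D] above and K[161:99D] far below the others in both plates.

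Editing also differed among the members. With site A and the state's own target site left out, B[115:100D] members had 35.4% of cut sites edited in plate 00 and 35.4% in plate 01, against 21.5 and 21.4% in the other members. K[161:99D] members had 7.01 and 7.81%, against 23.8 and 24.9%. E[113:77D] members were at 17.4 and 17.6% (others, 24.0 and 25.1%) and I[167:2I] members at 14.9 and 16.7% (24.0 and 25.5%). M[91:82D] members were close to the rest of their plates, at 19.1 and 19.1% in plates 10 and 11, against 18.8 and 21.7%. The high value of B[115:100D] came with several further states shared by nearly all of its members, among those with the site detected: A[167:54D] in 196 of 197, C[155:19D] in 192 of 193, L[145:22D] in 170 of 171, F[111:1D] in 194 of 196 and P[113:7D] in 116 of 118. F[166:4D] was carried by 166 of 196 and G[164:76D] by 96 of 184. Neither group was compared with a test, since these states were picked by their size in the same cells and each plate is 1 library.

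Long deletions shorten the transcript that is amplified and read, and UMI counts were set beside them. M[91:82D] alleles had a median of 12 UMIs in plates 10 and 11, against 8 and 9 for uncut alleles of site M in the same plates. As a share of the cell's UMIs outside site A, the 82-base deletion took a median of 11.6 and 11.5%, against 8.33 and 8.33%. Of 13 deletions of 50 bases or more with at least 50 members, 11 had a higher median share than the uncut allele in every plate compared and 0 a lower one. Of 56 shorter deletions, 38 were higher and 6 lower in every plate. On the UMI counts themselves the tally was 7 higher and 2 lower of the 13 long deletions, and 19 higher and 7 lower of the 56 shorter ones. In carriers their deletion of site A had a median of 14 UMIs, against 8 for the alleles of site A in members. The part of transcript length in detection and in these counts was not tested.

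In 314 members (9.08%; 8.15 to 10.1%) target site A was missing, so that the rule could not see whether they carried the deletion. They were 50 of 619 members in plate 00 (8.08%; 6.05 to 10.5%), 93 of 831 in plate 01 (11.2%; 9.13 to 13.5%), 86 of 973 in plate 10 (8.84%; 7.13 to 10.8%) and 85 of 1034 in plate 11 (8.22%; 6.62 to 10.1%), and these intervals overlap. Their median depth was 89.5 UMIs outside site A, against 104 in members with the site, and both had a median of 12 other sites detected. They were unevenly spread over the groups: 127 were in the M[91:82D] group (9.78% of it), 36 in G[90:25D] (8.09%), 36 in E[113:77D] (18.2%), 10 in B[115:100D] (4.88%) and 77 among the 331 remaining members (23.3%).

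States at the other 15 sites place most of these cells. Among Clone 3 cells with site A detected, 331 states at other sites had at least 20 cells. Of these, 64 had at least 95% of their cells among carriers and are called linked to the deletion, and 71 had at most 5% there and are called linked to its absence. Of the 314 cells with site A missing, which did not enter these definitions, 237 (75.5%) carried only states linked to absence, 41 (13.1%) only states linked to the deletion, 19 (6.05%) both kinds and 17 (5.41%) neither. In all, 60 (19.1%; 14.9 to 23.9%) carried a state linked to the deletion. By plate this was 18 of 50 in plate 00 (36.0%), 20 of 93 in plate 01 (21.5%), 9 of 86 in plate 10 (10.5%) and 13 of 85 in plate 11 (15.3%). Both values of first-split plate 0, where carriers were the larger part of the clone, were above both of plate 1.

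**Figure D5:**
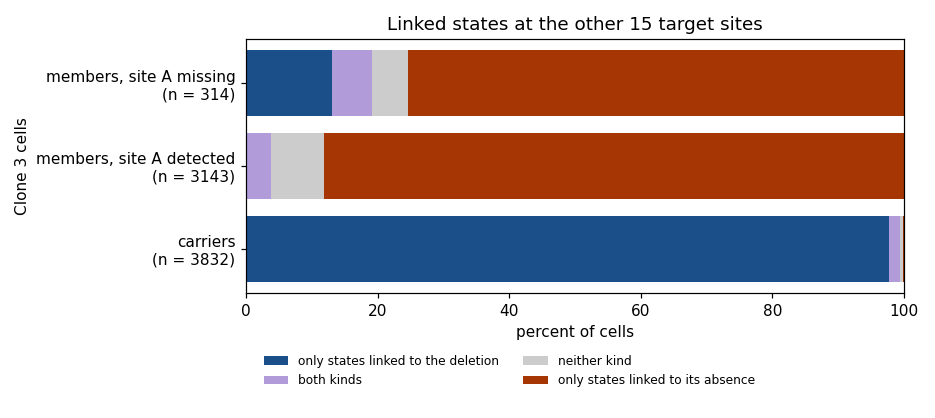
Percent of cells with only states linked to the deletion, both kinds, neither kind, or only states linked to its absence (left to right in each bar), for members with site A missing, members with site A detected and carriers. Of the members with site A missing, 13.1% had only states linked to the deletion and 75.5% only states linked to its absence. The 2 lower bars follow in part from how linked states were defined.

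For members with site A detected, 2770 of 3143 carried only states linked to absence, 4 only states linked to the deletion, 115 both kinds and 254 neither. For carriers the counts were 4, 3747, 65 and 16 of 3832. M[91:82D] was found in 8 carriers, 6 in plate 10 and 2 in plate 11, with a median of 1 UMI for site M and 13.5 for site A. G[90:25D] was found in 4 carriers, 3 in plate 00 and 1 in plate 01, with a median of 1 UMI for site G and 9 for site A. In members M[91:82D] had a median of 12 UMIs. Free RNA and droplets with more than 1 cell were not tested as sources of these alleles, and the table keeps 1 allele per cell and target site.

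Most members were distinguishable, and 3249 of 3457 had a string of alleles seen in no other member. Taking the alleles of all 16 sites together, with a missing site as a state, 3347 distinct strings were found in 3457 members, or 96.8 per 100, and the most common string was shared by 4 members. Per 100 cells at equal numbers in each plate, members had 97.7, 97.0, 98.5 and 98.4 distinct strings in plates 00, 01, 10 and 11, against 96.8, 97.4, 96.9 and 97.5 in carriers. Missing sites add to this variety, and so do indels seen once: of the 2595 states of members, 1311 (50.5%) were found in 1 cell.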

How the data were processed

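Target site transcripts were measured by single-cell RNA sequencing (10x Genomics 3′) in 1 library for each of 4 final plates. The authors ran Cell Ranger 2.0.1, collapsed reads to UMIs, required 2 reads per UMI and 10 UMIs per cell, and aligned consensus sequences to the target site. They kept 1 allele per cell and intBC, called clones and dropped intBCs in few cells of a clone. Doublets within a clone were called from conflicting alleles, and doublets between clones were removed by their intBC sets. The deposited allele table gives UMI counts and read counts per allele, not normalized, with the indel at each of 3 cut sites as text. No genome build applies to the target site. The deposited trees of other clones were not used.

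Members were found by the rule stated in the report, and the members, states and lists were chosen with earlier results of these data known. An indel listed at several cut sites of a target site was counted as 1 state, and the 30 cut sites of Clone 3 without a call were left out. Named states were those of site A, the 12 most frequent states, the states that led the first 10 groups, M[91:82D] and G[90:25D], and in each of these the 5 most frequent further states and the one most tied to a final plate. Other states named were chosen after their values were seen. The final plates have no replicates. Shares have exact (Clopper-Pearson) 95% intervals, a count of 0 allows up to 3 counts, and 6 measures of members minus carriers were given a two-sided exact p from flipping the signs of the 4 plate differences (a permutation test), with Benjamini-Hochberg adjustment. Values at equal numbers of cells are means of 20 draws. The functions were tested on simulated data. Alternatives covered alleles under 5 UMIs, cells with site A detected, flanking bases, target sites, thresholds and each plate. Python 3.11.15, numpy 2.4.6, pandas 2.3.3, scipy 1.17.1 and matplotlib 3.10.9 were used.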

Additional observations from a re-analysis of the deposited data

Results flagged for a closer look

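In 3 measures the gap between members and carriers pointed one way in both plates of first-split plate 0 and the other way in both of plate 1. The difference between the first-split plates was not tested, since each has 2 libraries. Detected cut sites edited outside site A were 2.15 percentage points higher in members than in carriers on average in plate 0 and -4.60 points, members minus carriers, in plate 1. At cut site 3 alone the values were 0.321 and -7.63 points. The number of other target sites detected per cell was -0.315 in members minus carriers in plate 0 and 0.292 in plate 1.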

How the results depend on the processing

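Of 78 values recomputed under alternatives, over 16 results, 57 were counted as unchanged, 21 as moved and 0 as changed in direction. Unchanged shares lay in the 95% interval and unchanged counts within 1.5 times. Distinct strings and edited cut sites by state had to stay within the spread over plates. Differences between members and carriers counted as unchanged if they only kept their direction. Such values still differed much. Edited cut sites, members minus carriers, were -1.23 points, but -0.557 with alleles under 5 UMIs set to missing and between -2.52 and -0.00208 with 1 plate left out. UMIs per cell were 6.75 higher in members, but 3.25 with the median over cells. With alleles under 5 UMIs set to missing, which turns 259 carriers into members by the rule, members were 51.0% of Clone 3, site A was missing in 32.4% of members, 12.4% of those carried a state linked to the deletion, and there were 92.0 distinct strings per 100 members. Among cells with site A detected, members were 45.1% of Clone 3. At a threshold of 99% for linked states the share was 13.1%. States confined to 1 first-split plate numbered 172 with at least 10 members per state and 52 with at least 50. Leaving out 1 final plate at a time, members were 42.5 to 53.7% of Clone 3, M[91:82D] members 603 to 1299 and G[90:25D] members 224 to 455. Among alternatives added after the data were seen, pairs of a state and a missing site numbered 19 with alleles under 5 UMIs set to missing and 26 with at least 100 members per state. Leaving out cells with a barcode seen in another library gave 1250 M[91:82D] and 434 G[90:25D] members. All 16 target sites were detected in at least 50% of Clone 3 cells, so the limit on target sites changed nothing. Members and carriers were compared within each plate, and there was no replicate number to pair plates by. Depth limits the detection of a target site in a cell, with medians of 6 to 11 UMIs per site in members.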
